A study of Arabidopsis thaliana with 12 samples.

Results

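The genes described here are 63 nuclear genes of Arabidopsis thaliana roots whose transcripts stood at least 4 times higher 8 h after the transcription factor PLT5 was switched on. They were chosen by a rule on the 8 h libraries alone: a mean of at least 2 CPM (counts per 1000000 counts of the library) in induced roots at 8 h, and at least 4 times the mean of mock roots at 8 h. Of 32548 nuclear loci, among 34262 loci in all, 74 met both thresholds, and 11 of these, PLT5 itself included, were left out by name. The 8 h values are therefore a description without a test. The tests compare induced with mock roots at 24 h, in libraries that the rule did not use. Their model holds all 12 libraries, so the 8 h libraries also enter its filter and its estimate of spread. With the 24 h libraries alone, 61 of the 63 genes were called higher.

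PLT5 belongs to the PLETHORA/AINTEGUMENTA-LIKE family of AP2-domain transcription factors, which maintain root meristems and act in the formation of lateral roots and in the vascular cambium. In the XVE system a chimeric activator is held inactive until estradiol binds it, and it then switches on the gene placed behind its target promoter. Genes that respond within hours of such a switch include direct targets of the induced factor and genes further downstream, and expression data do not separate them.

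All 4 groups had the genotype 35S:XVE>>PLT5-TagRFP, in which XVE, made from the 35S promoter, controls a fusion of PLT5 to TagRFP, a red fluorescent tag. They were induced roots (estradiol, EST in the labels) at 8 h, mock roots (the solvent DMSO) at 8 h, induced roots at 24 h and mock roots at 24 h, with 3 biological replicates each. A sample pooled segments of 1.5 cm from below the root-hypocotyl junction of 15 plants, without visible lateral roots. The 12 libraries held 34958324 to 41447647 counts. Plants without the transgene were not analysed here, so effects of estradiol and of PLT5 cannot be told apart. The counts of PLT5 pool the native gene with the transgene, and the 35S promoter is active in most cell types. PLT5 checked the labels: it lay at 2423 to 2710 CPM in induced and 11.7 to 14.4 CPM in mock roots at 8 h, and at 2846 to 3095 CPM in induced and 11.4 to 16.6 CPM in mock roots at 24 h.

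These segments are bulk tissue, in which a change in the number of cells of a type and a change in RNA per cell cannot be told apart. The summed level of 3 markers of root tip stem cells (WOX5, PLT1 and PLT2) was 7.14 to 7.88 CPM in induced and 0.362 to 0.968 CPM in mock roots at 24 h, and 0.866 to 1.44 CPM in induced and 0.410 to 1.26 CPM in mock roots at 8 h. Summed CPM of 6 markers of mature root vasculature and periderm was 669 to 772 in induced and 783 to 820.3 in mock roots at 8 h, and 227 to 248 in induced and 745 to 859.6 in mock roots at 24 h. Of these 6, 5 were lower at 24 h (among them PXY with a log2 fold change of -3.22 and CYP86A1 with -4.66), while SUC2 was higher. SUC2, one of the 11 genes left out by name, had means of 184 CPM in induced and 33.1 CPM in mock roots at 8 h. At 24 h its means were 148 CPM in induced and 36.3 CPM in mock roots, most of the induced sum at 24 h. The induced sum at 8 h also holds the rise of SUC2, while the means of the other 5 were lower in induced than in mock roots. They were 150.6 against 232.4 CPM for PXY, 235.2 against 301.5 CPM for CYP86A1 and 57.05 against 132.8 CPM for PHO1. APL had 13.3 against 22.4 CPM and IRX3 72.8 against 75.2 CPM. No marker of these lists had 0 counts in a whole group, as was also so for 3 root cap markers (0.957 to 1.15 CPM in induced and 0.193 to 0.672 CPM in mock roots at 24 h) and 4 markers of green tissue (831 to 945 CPM in induced and 926 to 1176 CPM in mock roots at 24 h). At 8 h the markers of green tissue went the other way, with 1149 to 1430 CPM in induced and 979 to 1011 CPM in mock roots. The root cap markers had 0.552 to 0.817 CPM in induced and 0.307 to 0.704 CPM in mock roots at 8 h. The part of such shifts in the responses below was not tested.

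Promoter sequence is shown for 5 of the 63 genes: for 3 neighbouring and related genes that were raised together, and for a pair from among the genes with a repeated motif. Each sequence is the stretch of 250 bases before the annotated gene start, read 5′ to 3′ on the strand of the gene, from the RefSeq assembly TAIR10.1. The first 3 belong to AT5G41280 (chr5:16509257-16509506, plus strand), AT5G41290 (chr5:16511904-16512153, plus strand) and AT5G41300 (chr5:16514679-16514928, plus strand), which encode related proteins of a receptor-like kinase-related family. Capitals mark the runs ACTTGAAATATA and AGTCAACTCTT, which all 3 promoters hold in the same order.
AT5G41280: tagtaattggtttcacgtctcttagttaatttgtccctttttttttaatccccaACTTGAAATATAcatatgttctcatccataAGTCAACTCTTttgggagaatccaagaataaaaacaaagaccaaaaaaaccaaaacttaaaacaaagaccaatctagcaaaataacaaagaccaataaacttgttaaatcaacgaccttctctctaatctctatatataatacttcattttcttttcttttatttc
AT5G41290: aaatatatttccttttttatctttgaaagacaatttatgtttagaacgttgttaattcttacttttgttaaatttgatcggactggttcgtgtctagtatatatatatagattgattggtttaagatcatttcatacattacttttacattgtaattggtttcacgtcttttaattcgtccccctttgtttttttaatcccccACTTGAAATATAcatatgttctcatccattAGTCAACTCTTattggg
AT5G41300: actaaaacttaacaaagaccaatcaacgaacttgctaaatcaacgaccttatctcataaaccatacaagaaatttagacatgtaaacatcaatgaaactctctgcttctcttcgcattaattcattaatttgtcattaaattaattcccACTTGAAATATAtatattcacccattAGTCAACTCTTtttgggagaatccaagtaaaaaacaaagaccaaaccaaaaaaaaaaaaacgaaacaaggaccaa
The run of 12 bases began 196 bases before the start of AT5G41280, 47 bases before that of AT5G41290 and 101 bases before that of AT5G41300. The run of 11 bases began 166, 17 and 75 bases before the same starts. Among 27443 promoters of equal length of protein-coding genes, these 3 included, 9 held the first run and 10 the second on either strand. These runs were found by comparing the 3 promoters with each other and are a description of their likeness.

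The other pair is AT1G15330, a protein with cystathionine beta-synthase (CBS) domains (promoter chr1:5274021-5274270, plus strand, capitals mark CACGTG), and AT1G05577, a DUF966-family protein (promoter chr1:1664399-1664648, minus strand, capitals mark TGTCTC).
AT1G15330: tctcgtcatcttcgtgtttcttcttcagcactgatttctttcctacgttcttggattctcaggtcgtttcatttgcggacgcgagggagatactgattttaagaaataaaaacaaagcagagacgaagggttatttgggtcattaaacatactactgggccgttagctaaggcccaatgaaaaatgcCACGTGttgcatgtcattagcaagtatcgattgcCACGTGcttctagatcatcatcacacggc
AT1G05577: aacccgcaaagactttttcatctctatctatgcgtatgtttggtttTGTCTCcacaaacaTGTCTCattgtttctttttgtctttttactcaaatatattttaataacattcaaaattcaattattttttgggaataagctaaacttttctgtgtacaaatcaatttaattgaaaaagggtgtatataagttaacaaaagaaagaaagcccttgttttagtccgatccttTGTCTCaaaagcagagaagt
CACGTG, known as the G-box, began 63 and 29 bases before the start of AT1G15330. TGTCTC, known as an auxin response element, began 204, 190 and 20 bases before the start of AT1G05577. AT2G45180, whose promoter is not printed, also held repeated TGTCTC matches over both strands, beginning 118 and 109 bases before its start. Across the 63 promoters on both strands, TGTCTC was held by 5 (7.9%, against 10.95% of the 27443 promoters of protein-coding genes). TGTCGG, another auxin response factor motif, was held by 2 (3.2% against 4.16%), and CACGTG by 2 (3.2% against 6.49%). CAATNATTG, a motif of homeodomain leucine zipper proteins, was held by 2 (3.2% against 0.92%), and the core of the AINTEGUMENTA consensus by AT4G15990 alone (1.6% against 0.88%). TGTCTC and TGTCGG share their first letters, and CACGTG can lie inside a match to the AINTEGUMENTA core, which is CAC, 3 free bases and TCCC. A match is not a binding site, and 12 of the 63 promoters held any of the 5 motifs.

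At 8 h the ratio of mean CPM, induced over mock, ran from 4.005 for LHT1 to 207 for AT2G33010, with a median of 6.59. No mock library reached any induced library for any of the 63 genes at 8 h, which the rule favoured and which 39.6% of the 21439 genes tested also showed. Most of these genes were low in mock roots: the mock mean at 8 h was under 1 CPM for 37 of them and at least 10 CPM for 8. A level under 1 CPM was not always near silence, since AT4G15990, at 0.988 CPM, had 111 counts over the mock 8 h libraries. The rule sets no lower limit for mock roots, and the share of all loci under 1 CPM was not counted. Together the 63 genes summed to 1261 to 1555 CPM in induced and 209 to 251 CPM in mock roots at 8 h, and to 2017 to 2032 CPM in induced and 227 to 271 CPM in mock roots at 24 h. Among the induced 8 h libraries replicate 2 was the highest for 37 of the 63 genes, and among the mock 8 h libraries replicate 2 was the highest for 34.

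The response was kept at 24 h by nearly all of them. Of the 63 genes, 62 were higher in induced than in mock roots at 24 h by edgeR's quasi-likelihood test at an adjusted p of 0.05 and none was lower, where 38.3% of 21439 tested genes were called higher and 34.0% lower. Only 58 of the 63 had at least 10 counts in 3 mock libraries. The others passed the filter through induced libraries, where they are high, so a call of lower was hardly possible for them. In 62 genes every induced library at 24 h lay above every mock library, as for 49.6% of the tested genes, and GA2OX8 was the exception in both counts. With library totals in place of TMM scaling, 10336 genes were called higher and 6095 lower, against 8216 and 7289 with TMM, and the median of all tested genes moved by 0.14 on the log2 scale. The median log2 fold change of the 63 genes was 3.07, against 0.06 for all tested genes, and 58 of the 63 had a log2 fold change of at least 2, where 2.06% of the tested genes were called with a rise of that size. Both thresholds of the rule were met again in the 24 h libraries by 58 of the 63 genes, against 294 nuclear loci, or 0.903%, in all.

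The 292 nuclear loci raised between 2 and 4 times at 8 h give a neighbouring class for reading these counts. Of these, 248 (84.9%) were called higher and 9 lower at 24 h, with a median log2 fold change of 1.33. Just inside the threshold of 4 were LHT1 (ratio 4.005), the noncoding locus AT3G57157 (4.03) and NRT2.7 (4.08), and just outside were AT4G25310 (3.98), AT3G47800 (3.97) and CYP71A16 (3.89). AT4G25310, an oxygenase family gene, lay at 82.4, 74.6 and 88.1 CPM in induced and 18.9, 16.9 and 25.7 CPM in mock roots at 8 h. AT3G47800, which encodes a galactose mutarotase-like protein, lay at 9.53, 9.21 and 8.47 CPM in induced and 2.38, 1.89 and 2.58 CPM in mock roots at 8 h. CYP71A16, a cytochrome P450, lay at 3.17, 5.804 and 5.55 CPM in induced and 1.21, 1.57 and 0.947 CPM in mock roots at 8 h. None of these 3 overlapped between the groups at 8 h, where 39.6% of the tested genes had every induced library above every mock library. At 24 h, AT4G25310 lay at 62.6, 60.6 and 64.3 CPM in induced and 9.98, 13.8 and 11.6 CPM in mock roots, AT3G47800 at 17.4, 19.5 and 19.3 CPM in induced and 1.68, 1.98 and 2.58 CPM in mock roots, and CYP71A16 at 15.3, 15.8 and 15.8 CPM in induced and 0.868, 1.91 and 2.21 CPM in mock roots. All 3 rose at 24 h in edgeR's test, by 2.26 (AT4G25310), 3.03 (AT3G47800) and 3.09 (CYP71A16) on the log2 scale.

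**Figure D1:**
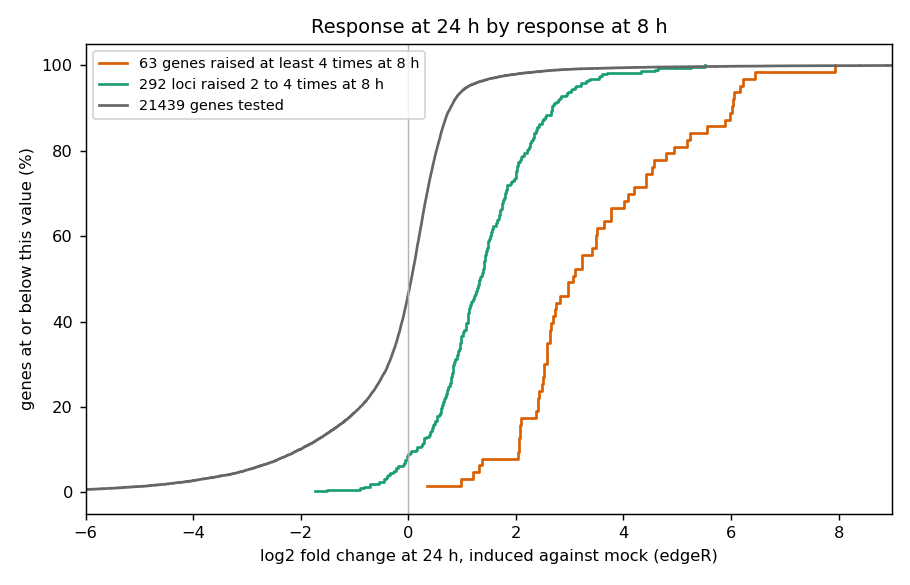
Share of genes (vertical axis, %) at or below each log2 fold change at 24 h, induced against mock roots (horizontal axis, edgeR), for the 63 genes raised at least 4 times at 8 h, the 292 loci raised 2 to 4 times and all 21439 genes tested. The curve of the 63 genes starts at 0.35 (GA2OX8) and lies to the right of both others, with medians of 3.07, 1.33 and 0.06.

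Levels in induced roots mostly stood higher at the later time. Induced roots at 24 h lay above induced roots at 8 h, with no overlap of the libraries, for 40 genes, below for 5 and overlapping for 18, and the median ratio of the means was 1.70. The level in induced roots was at least 2 times higher at 24 h than at 8 h for 25 genes and at most 0.5 times for 3. Mock roots moved little over the same time, with a median ratio of 1.07 and a ratio within 2 times for 62 genes. The exception, AT1G15330, had 3 counts in all in the mock 8 h libraries. These comparisons over time share the 8 h libraries with the rule and were not tested. The shares of all tested genes that changed in these ways between the times were not counted. Whether such counts are particular to the genes described here was therefore not tested.

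**Figure D2:**
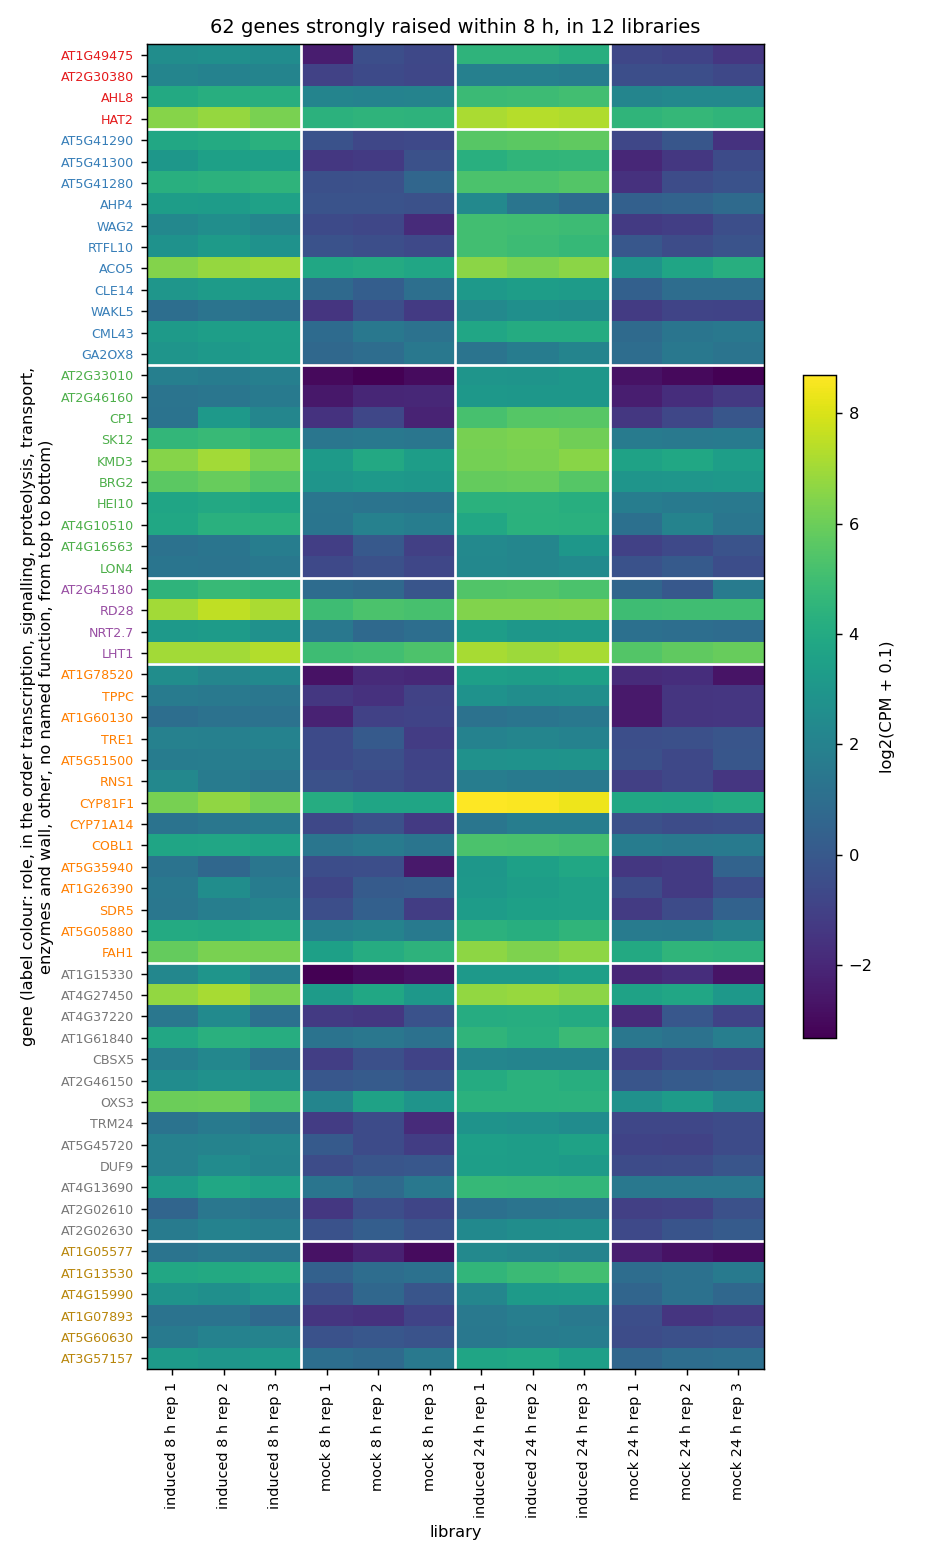
Level of 62 of the 63 genes (rows, grouped by role and ordered within a role by the 8 h ratio) in each of the 12 libraries (columns), as log2(CPM + 0.1). Every row is brighter in the 3 induced 8 h columns than in the 3 mock 8 h columns, and the induced 24 h columns are brightest for CYP81F1, at 337 to 413 CPM.

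By product name, 4 of the 63 genes encode DNA-binding proteins, and all 4 rose at 24 h, with a median log2 fold change of 2.56. Counts by role, here and below, follow from the 62 of 63 called higher, where 38.3% of all tested genes were called higher. Some DNA-binding proteins, PLT5, CUC2, WOX11 and LBD33 among them, were left out by name and are not in this count. The share of DNA-binding proteins over all loci was not counted. AT1G49475 (chromosome 1, 18312883 to 18314099, plus strand) encodes a protein of the B3 DNA-binding family. It had 5.74, 6.23 and 5.65 CPM in induced and 0.0971, 0.629 and 0.512 CPM in mock roots at 8 h. At 24 h AT1G49475 had 22.3, 22.1 and 18.5 CPM in induced and 0.485, 0.434 and 0.269 CPM in mock roots. No mock library reached an induced one at 24 h, as for 49.6% of the tested genes. The rise at 24 h was 5.56 (SE 0.279, edgeR adjusted p = 3.25e-09) on the log2 scale.

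HAT2 (AT5G47370, chromosome 5, 19216271 to 19218007, minus strand) encodes an auxin-inducible homeodomain leucine zipper protein of class II. HAT2 had 90.3, 111 and 77.1 CPM in induced and 21.1, 22.7 and 21.7 CPM in mock roots at 8 h. At 24 h, HAT2 had 142, 165 and 153 CPM in induced and 23.2, 25.5 and 23.4 CPM in mock roots, a log2 fold change of 2.53 (SE 0.109, edgeR adjusted p = 9.28e-10). HAT2 was thus expressed in every mock library. AHL8, an AT-hook DNA-binding protein, averaged 30.8 ± 2 CPM in induced and 4.66 ± 0.235 CPM in mock roots at 24 h (log2 fold change 2.58, SE 0.0809, edgeR adjusted p = 1.17e-10). AT2G30380, annotated as a MYB family factor, was among the 5 genes whose induced level was lower at 24 h than at 8 h, with 4.31, 3.89 and 4.21 CPM at 8 h and 3.63, 3.69 and 3.31 CPM at 24 h. It still rose against mock at 24 h (log2 fold change 2.43, SE 0.153, edgeR adjusted p = 2.4e-08).

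A list of 25 early auxin response genes held HAT2 from these 63, and also LBD33, which met both thresholds but was among the 11 genes left out by name (means of 2.80 CPM in induced and 0.303 CPM in mock roots at 8 h). Of the 22 list genes tested at 24 h, 6 were higher and 8 lower in induced roots, with a median log2 fold change of -0.47. Of 13 genes of lateral root founding and organ boundaries, 10 were tested, 5 were higher and 4 lower, with a median of -0.11. None of these 13 was among the 63, since CUC2 and WOX11, which met both thresholds, were left out by name too. Among 9 embryo and shoot regulators only 3 were tested: LEC2 and ESR1 were higher and AGL15 was lower. The median of 4.71 is the value of LEC2, and the summed level of all 9 was 4.71 to 5.54 CPM in induced and 8.98 to 9.34 CPM in mock roots at 24 h.

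Signalling genes formed a group of 11, of which 10 rose at 24 h, with a median log2 fold change of 3.64 (range 0.35 to 6.44). It held both some of the largest and the 2 smallest responses at 24 h. The 2 largest were those of AT5G41290 and AT5G41280, which stand in tandem with AT5G41300, while the response of WAG2 lay between those of AT5G41280 and AT5G41300. The tandem genes are AT5G41280 (chromosome 5, 16509507 to 16511078, plus strand), AT5G41290 (chromosome 5, 16512154 to 16513671, plus strand) and AT5G41300 (chromosome 5, 16514929 to 16516331, plus strand), whose promoters are printed above. AT5G41280 had 18.9, 21.2 and 22.2 CPM in induced and 0.656, 0.687 and 1.46 CPM in mock roots at 8 h. At 24 h AT5G41280 had 38.9, 39.2 and 44.9 CPM in induced and 0.23, 0.603 and 0.726 CPM in mock roots. The mean of its induced libraries was 1.98 times higher at 24 h than at 8 h. AT5G41290 had 14.7, 16.001 and 19.8 CPM in induced and 0.704, 0.486 and 0.537 CPM in mock roots at 8 h. At 24 h AT5G41290 had 46.6, 50.6 and 54.6 CPM in induced and 0.485, 0.82 and 0.242 CPM in mock roots. Its mock libraries stayed below 1 CPM at both times. AT5G41300 had 8.04, 11.2 and 10.9 CPM in induced and 0.291, 0.315 and 0.691 CPM in mock roots at 8 h. At 24 h AT5G41300 had 19.3, 22.8 and 23.6 CPM in induced and 0.153, 0.29 and 0.565 CPM in mock roots.

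All 3 tandem genes reached at most 1.46 CPM in a mock library, and all 3 were higher in every induced library at 24 h than in any at 8 h. AT5G41290 rose by 6.44 (SE 0.223, edgeR adjusted p = 1.96e-10) on the log2 scale at 24 h, AT5G41280 by 6.16 (SE 0.251, edgeR adjusted p = 6.29e-10) and AT5G41300 by 5.89 (SE 0.286, edgeR adjusted p = 2.53e-09). Their transcripts are 86.7% identical over 1013 aligned bases between AT5G41280 and AT5G41290, and 77.2% identical between AT5G41300 and either of them, so reads could be split between them.

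WAG2 and RTFL10, another pair of neighbours, rose alike. WAG2 (AT3G14370, chromosome 3, 4797828 to 4799612, minus strand) is a protein kinase that acts on the polarity of PIN auxin carriers, and RTFL10 (AT3G14362, chromosome 3, 4793678 to 4794417, minus strand) encodes a small peptide of the ROTUNDIFOLIA-like family, whose members restrict cell proliferation when overexpressed. WAG2 had 4.78, 5.94 and 4.52 CPM in induced and 0.559, 0.486 and 0.179 CPM in mock roots at 8 h. At 24 h WAG2 had 33.2, 32.4 and 29.7 CPM in induced and 0.306, 0.362 and 0.645 CPM in mock roots. RTFL10 had 6.95, 9.19 and 6.84 CPM in induced and 0.704, 0.629 and 0.537 CPM in mock roots at 8 h. At 24 h RTFL10 had 32.9, 30.1 and 26.04 CPM in induced and 0.868, 0.603 and 0.753 CPM in mock roots. Both were below 1 CPM in every mock library and near 30 CPM in induced roots at 24 h, with log2 fold changes of 6.04 (SE 0.228, edgeR adjusted p = 3.66e-10) for WAG2 and 5.18 (SE 0.166, edgeR adjusted p = 1.3e-10) for RTFL10. The pair lies 3410 bases apart on the same strand.

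ACO5 (AT1G77330, chromosome 1, 29062945 to 29064637, minus strand), an oxidase of the last step of ethylene synthesis, had 76.9 CPM per kb of exon in induced and 10.5 CPM per kb in mock roots at 8 h. ACO5 had 86.9, 109.9 and 122 CPM in induced and 14.1, 15.96 and 13.7 CPM in mock roots at 8 h. At 24 h ACO5 had 96.2, 79.4 and 95.8 CPM in induced and 7.43, 13.4 and 18.6 CPM in mock roots. Its induced levels overlapped between the times, and the log2 fold change at 24 h was 2.64 (SE 0.241, edgeR adjusted p = 7.46e-07). CLE14, a precursor of a CLE signalling peptide, averaged 9.48 ± 0.751 CPM in induced and 1.62 ± 0.387 CPM in mock roots at 24 h (log2 fold change 2.40, SE 0.193, edgeR adjusted p = 2.35e-07). WAKL5, a wall-associated kinase-like protein, averaged 5.65 ± 0.598 CPM in induced and 0.407 ± 0.0665 CPM in mock roots at 24 h (log2 fold change 3.64, SE 0.239, edgeR adjusted p = 3.57e-08). CML43, a calmodulin-like calcium sensor, averaged 15.6 ± 1.64 CPM in induced and 2.26 ± 0.531 CPM in mock roots at 24 h (log2 fold change 2.64, SE 0.166, edgeR adjusted p = 2.39e-08).

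GA2OX8 and AHP4 went the other way between the times. GA2OX8 (AT4G21200, chromosome 4, 11302682 to 11306770, plus strand), an oxidase that inactivates gibberellin precursors, had 7.67, 9.05 and 10.05 CPM in induced and 1.55, 1.89 and 2.74 CPM in mock roots at 8 h. At 24 h GA2OX8 had 2.39, 3.17 and 4.23 CPM in induced and 1.84, 2.702 and 2.39 CPM in mock roots, so the groups overlapped. It was not called (log2 fold change 0.35, SE 0.239, edgeR adjusted p = 0.199), nor under any alternative, where the adjusted p from edgeR or DESeq2 ran from 0.0576 to 0.667. AHP4 (AT3G16360, chromosome 3, 5554197 to 5555789, plus strand), a histidine phosphotransfer protein of the cytokinin phosphorelay, had 10.2, 9.96 and 11.6 CPM in induced and 0.729, 0.744 and 0.691 CPM in mock roots at 8 h. At 24 h AHP4 had 4.91, 2.43 and 1.73 CPM in induced and 1.199, 1.33 and 1.67 CPM in mock roots. Induced replicate 1 was the highest of these and replicate 3 lay just above the highest mock library. Its log2 fold change was 0.98 (SE 0.309, edgeR adjusted p = 0.0128), and without induced 24 h replicate 1 it was 0.43 (edgeR adjusted p = 0.0565). In a fit of the 6 libraries of 24 h alone AHP4 was not called either (edgeR adjusted p = 0.0537), and over all alternatives its adjusted p from edgeR or DESeq2 ran from 0.000979 to 0.0565.

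**Figure D3:**
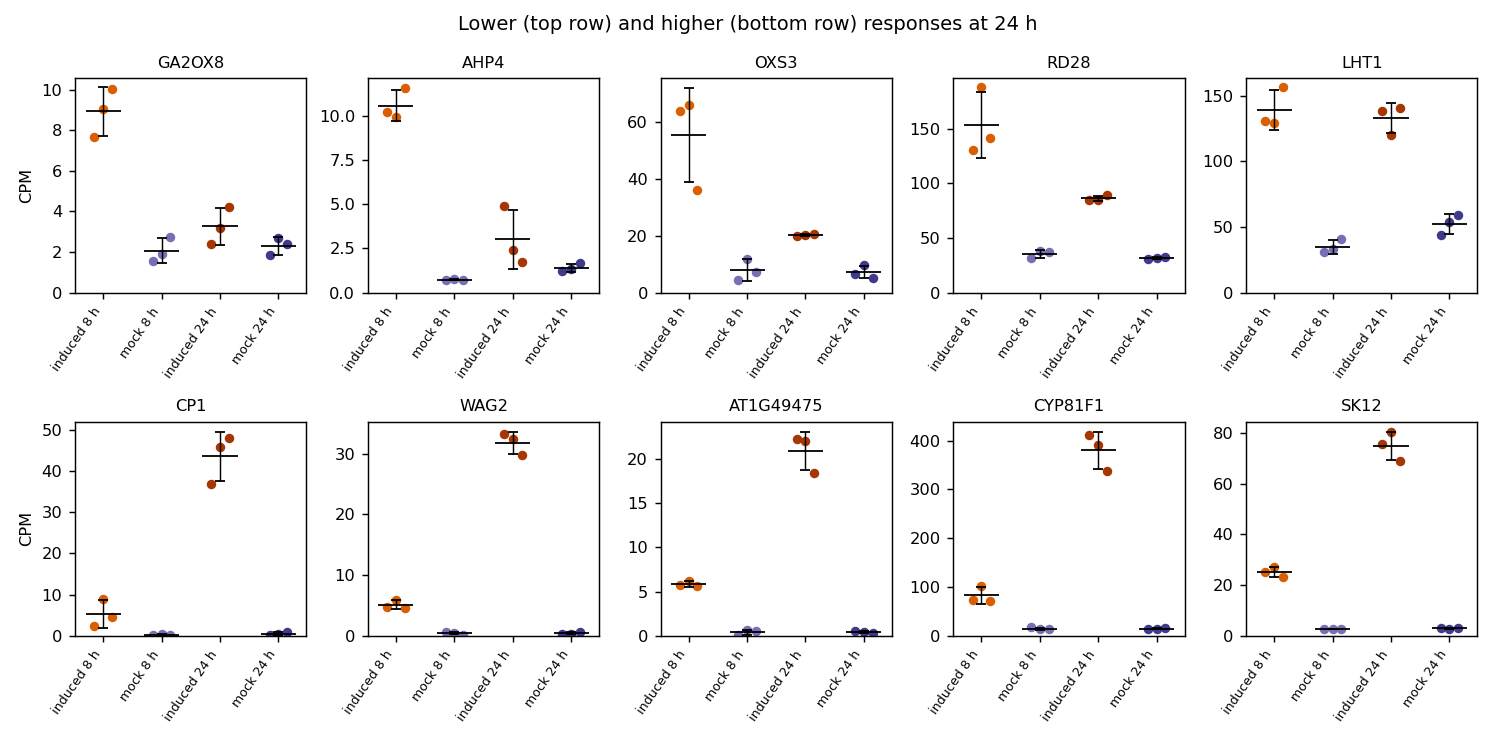
CPM of 10 genes in the 3 libraries of each group (points, with the mean as a line and the SD as a bar), in the order induced 8 h, mock 8 h, induced 24 h and mock 24 h. The top panels show the 5 smallest responses at 24 h, GA2OX8 and AHP4 among them, and the bottom panels 5 genes whose induced level was at least 2 times higher at 24 h than at 8 h, such as WAG2 at 29.7 to 33.2 CPM.

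Genes of protein turnover numbered 10, and all 10 rose at 24 h, as did 62 of the 63, with a median log2 fold change of 2.93 (range 2.51 to 7.92). The highest response of all 63 genes was that of AT2G33010 (chromosome 2, 14010838 to 14013246, plus strand), a protein with a ubiquitin-associated domain. AT2G33010 had 3.56, 3.19 and 3.58 CPM in induced and 0.0243, 0 and 0.0256 CPM in mock roots at 8 h. At 24 h AT2G33010 had 7.55, 7.37 and 7.99 CPM in induced and 0.051, 0.0241 and 0 CPM in mock roots. The mock libraries held 2 counts in all at 8 h and 3 at 24 h, against 400 and 902 counts in induced roots. The ratio was thus 207 at 8 h (95% counting interval 54.6 to 1650) and 305 at 24 h (102 to 1460), and these intervals cover counting error only. The fitted log2 fold change at 24 h was 7.92 (SE 0.307, edgeR adjusted p = 4.32e-10), and 8.78 without mock replicate 1.

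CP1 (AT4G36880, chromosome 4, 17374454 to 17376279, minus strand), a papain-like cysteine proteinase, varied widely among the induced 8 h libraries. CP1 had 2.302, 8.89 and 4.47 CPM in induced and 0.243, 0.486 and 0.128 CPM in mock roots at 8 h. At 24 h CP1 had 36.9, 45.97 and 48.03 CPM in induced and 0.281, 0.483 and 0.833 CPM in mock roots. Its induced mean was 8.35 times higher at 24 h than at 8 h, and the log2 fold change at 24 h was 6.22 (SE 0.459, edgeR adjusted p = 1.08e-07). AT2G46160 (chromosome 2, 18962743 to 18964689, plus strand), a RING-type protein, had 2.33, 2.56 and 2.95 CPM in induced and 0.0729, 0.143 and 0.154 CPM in mock roots at 8 h. At 24 h AT2G46160 had 8.43, 8.16 and 8.09 CPM in induced and 0.102, 0.193 and 0.296 CPM in mock roots (log2 fold change 5.23, SE 0.236, edgeR adjusted p = 1.29e-09).

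SK12, a SKP1-like subunit of SCF ubiquitin ligases, had 24.998, 27.3 and 23.3 CPM in induced and 2.55, 2.66 and 2.56 CPM in mock roots at 8 h. At 24 h SK12 had 75.5, 80.2 and 68.8 CPM in induced and 3.11, 2.77 and 2.904 CPM in mock roots. The spread of SK12 was small in every group and its log2 fold change at 24 h was 4.53 (SE 0.0842, edgeR adjusted p = 7.44e-12). Its transcript is 99.4% identical over 473 bases to the family member SK11, so reads could be split between them and SK12 is uncertain. SK11 was counted at means of 3.79 CPM in induced and 0.204 CPM in mock roots at 24 h.

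KMD3 (AT2G44130, chromosome 2, 18253610 to 18255054, plus strand), a kelch-repeat F-box protein of the KISS ME DEADLY family that targets cytokinin response regulators for degradation, had 68.9 CPM per kb of exon in induced and 7.95 CPM per kb in mock roots at 8 h. KMD3 had 90.8, 130.3 and 77.7 CPM in induced and 9.13, 14.99 and 10.3 CPM in mock roots at 8 h. At 24 h KMD3 had 71.2, 76.7 and 94.003 CPM in induced and 11.8, 14.4 and 10.6 CPM in mock roots (log2 fold change 2.57, SE 0.216, edgeR adjusted p = 3.53e-07). All of its 1445 bases overlap AT2G44140, a peptidase gene on the opposite strand, which averaged 23.8 CPM in induced and 18.4 CPM in mock roots at 24 h, and since the strand setting of the counting is not given, their reads may not have been told apart.

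BRG2, a RING-type protein related to BOTRYTIS SUSCEPTIBLE1 INTERACTOR, averaged 54.2 ± 7.81 CPM in induced and 7.96 ± 0.482 CPM in mock roots at 24 h (log2 fold change 2.63, SE 0.127, edgeR adjusted p = 2.5e-09). HEI10 (AT1G53490, chromosome 1, 19963267 to 19966952, plus strand), a RING protein known for its role in meiotic crossover formation, had 13.3, 14.99 and 13.3 CPM in induced and 2.55, 2.37 and 2.28 CPM in mock roots at 8 h. At 24 h HEI10 had 20.6, 21.3 and 18.3 CPM in induced and 3.29, 2.94 and 2.82 CPM in mock roots (log2 fold change 2.59, SE 0.0924, edgeR adjusted p = 2.52e-10). HEI10 shares 839 bases with the noncoding AT1G07887 on the same strand, which averaged 0 CPM in induced and 0.00851 CPM in mock roots at 24 h. The remaining proteases gave log2 fold changes at 24 h of 2.51 for the subtilase AT4G10510, 3.23 for the aspartyl protease AT4G16563 and 2.52 for LON4, an organellar ATP-dependent protease.

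Transport genes had the smallest median response of the role groups at 24 h. All 4 rose, with a median log2 fold change of 1.69, and 2 of the 4 kept a ratio of at least 4. LHT1 (AT5G40780, chromosome 5, 16323567 to 16327382, plus strand), a carrier that takes up amino acids, had 131, 129 and 157 CPM in induced and 30.6, 33.04 and 40.5 CPM in mock roots at 8 h. At 24 h LHT1 had 139, 120.1 and 140.4 CPM in induced and 43.97, 53.9 and 59.2 CPM in mock roots. Its level in induced roots overlapped between the times while its mock level was higher at 24 h, and its log2 fold change was 1.20 (SE 0.124, edgeR adjusted p = 2.35e-06). RD28 (AT2G37180, chromosome 2, 15617635 to 15619155, plus strand), a plasma membrane aquaporin, had 131, 188 and 142 CPM in induced and 31.3, 38.4 and 37.1 CPM in mock roots at 8 h. At 24 h RD28 had 85.2, 84.7 and 89.2 CPM in induced and 30.6, 31.99 and 32.2 CPM in mock roots. All 3 induced libraries of 24 h were lower than those of 8 h, and the log2 fold change at 24 h was 1.31 (SE 0.113, edgeR adjusted p = 4.78e-07).

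RD28 is 90.7% identical over 988 bases to PIP2B, so its counts are uncertain to the extent that reads were shared. PIP2B averaged 36.3 CPM in induced and 60.3 CPM in mock roots at 24 h, a ratio of 0.603, while RD28 stood at 2.73. NRT2.7 (AT5G14570, chromosome 5, 4695084 to 4697078, minus strand), a nitrate transporter of the tonoplast, had 9.08, 9.69 and 6.73 CPM in induced and 2.72, 1.63 and 1.89 CPM in mock roots at 8 h. At 24 h NRT2.7 had 10.3, 8.16 and 8.25 CPM in induced and 2.07, 1.93 and 1.77 CPM in mock roots (log2 fold change 2.06, SE 0.193, edgeR adjusted p = 9.5e-07). AT2G45180, a lipid-transfer-like protein, had 39.0 to 43.9 CPM in induced and 0.893 to 3.12 CPM in mock roots at 24 h (log2 fold change 4.42, SE 0.297, edgeR adjusted p = 4.46e-08), and without mock replicate 3 the log2 fold change was 5.05.

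Enzymes and cell wall proteins were the largest group together with the mixed one below. All 14 rose at 24 h, with a median log2 fold change of 3.46 (range 2.08 to 6.05). The ratio was larger at 24 h than at 8 h for 12 of the 14, and for 48 of all 63 genes. The rule used the 8 h ratio, and the share over all tested genes was not counted. CYP81F1 (AT4G37430, chromosome 4, 17597110 to 17598958, plus strand, named CYP91A2 in RefSeq) is a cytochrome P450 of the CYP81 clade. CYP81F1 had 74.2, 103 and 71.3 CPM in induced and 17.1, 13.2 and 13.4 CPM in mock roots at 8 h. At 24 h CYP81F1 had 412, 390.3 and 337 CPM in induced and 14.01, 13.6 and 16.2 CPM in mock roots. Mock roots stayed at the same level while induced roots stood 4.60 times higher at 24 h than at 8 h, and the log2 fold change was 4.56 (SE 0.159, edgeR adjusted p = 2.04e-10). Per kb of exon it was the most abundant of the 63 in induced roots at 24 h, at 215 CPM per kb against 8.29 CPM per kb in mock roots. Of this locus, 1820 bases overlap the noncoding AT4G37432 on the opposite strand, which averaged 1.19 CPM in induced and 1.66 CPM in mock roots at 24 h.

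FAH1 (AT4G36220, chromosome 4, 17137313 to 17139777, minus strand), the ferulate 5-hydroxylase of syringyl lignin synthesis, had 57.9, 77.3 and 74.8 CPM in induced and 11.3, 17.4 and 21.5 CPM in mock roots at 8 h. At 24 h FAH1 had 99.9, 81.95 and 101 CPM in induced and 15.8, 23.3 and 21.5 CPM in mock roots (log2 fold change 2.08, SE 0.204, edgeR adjusted p = 1.51e-06). AT1G78520 (chromosome 1, 29537806 to 29538712, minus strand), a protein with an X8 domain that binds wall glucans, had 5.74, 4.47 and 5.08 CPM in induced and 0.0486, 0.172 and 0.154 CPM in mock roots at 8 h. At 24 h AT1G78520 had 10.8, 10.3 and 11.3 CPM in induced and 0.179, 0.193 and 0.0538 CPM in mock roots. It was nearly absent from mock roots, and its log2 fold change at 24 h was 6.05 (SE 0.263, edgeR adjusted p = 9.88e-10).

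Both of the trehalose enzymes in the set were higher: TPPC, a trehalose-6-phosphate phosphatase that makes trehalose, and TRE1, the trehalase that splits it. TPPC averaged 6.28 ± 0.518 CPM in induced and 0.204 ± 0.11 CPM in mock roots at 24 h, a log2 fold change of 4.78 (SE 0.269, edgeR adjusted p = 8.97e-09). TRE1 averaged 4.02 ± 0.204 CPM in induced and 0.699 ± 0.0937 CPM in mock roots at 24 h, a log2 fold change of 2.38 (SE 0.24, edgeR adjusted p = 1.91e-06). COBL1, a GPI-anchored COBRA-like protein of the cell wall, averaged 36.9 ± 2.76 CPM in induced and 2.96 ± 0.219 CPM in mock roots at 24 h (log2 fold change 3.496, SE 0.0965, edgeR adjusted p = 4.99e-11).

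Of the other enzymes, the pectin methylesterase family member AT5G51500 had a log2 fold change at 24 h of 3.23, the berberine bridge enzyme-like AT1G26390 of 4.20, the short-chain dehydrogenase SDR5 of 3.77 and the glycosyltransferase AT5G05880 of 2.48. CYP71A14, another cytochrome P450, stood at 2.08, and RNS1, a secreted ribonuclease, at 2.81. The mannose-binding lectins AT5G35940 and AT1G60130 stood at 4.01 and 3.42. AT5G35940 had 8.01, 11.3 and 14.1 CPM in induced and 0.281, 0.314 and 1.32 CPM in mock roots at 24 h, and mock replicate 3 stood well above the other mock libraries. Without it the log2 fold changes at 24 h were 5.07 for AT5G35940 and 4.43 for SDR5.

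A further 14 genes with a named domain but mixed functions all rose at 24 h, with a median log2 fold change of 3.08 (range 1.36 to 5.97). AT1G15330 (chromosome 1, 5274271 to 5275602, plus strand), the CBS-domain protein whose promoter is printed above, had 4.63, 7.53 and 3.73 CPM in induced and 0, 0.0286 and 0.0512 CPM in mock roots at 8 h. At 24 h AT1G15330 had 8.89, 9.03 and 10.9 CPM in induced and 0.153, 0.193 and 0.0538 CPM in mock roots. Its ratio at 8 h was 199 (95% counting interval 69.0 to 985, counting error only) from 612 counts in induced and 3 in mock roots, and its log2 fold change at 24 h was 5.97 (SE 0.372, edgeR adjusted p = 2.24e-08). OXS3 (AT5G56550, chromosome 5, 22895616 to 22896734, minus strand), a nuclear protein known for tolerance to oxidative stress, had 63.9, 65.9 and 36.3 CPM in induced and 4.25, 11.9 and 7.22 CPM in mock roots at 8 h. At 24 h OXS3 had 20.1, 20.2 and 20.7 CPM in induced and 6.69, 9.53 and 5.22 CPM in mock roots. The 3 induced libraries of 24 h lay close together and below all 3 of 8 h, and OXS3 still rose against mock (log2 fold change 1.36, SE 0.322, edgeR adjusted p = 0.00213).

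AT4G27450 (chromosome 4, 13727370 to 13729002, minus strand), an aluminium-induced protein, lies head to head with CBSX5 (AT4G27460, chromosome 4, 13732832 to 13734531, plus strand), another protein with CBS domains, with 3829 bases between them. AT4G27450 had 108, 139.5 and 77.3 CPM in induced and 9.57, 14.2 and 8.42 CPM in mock roots at 8 h. At 24 h AT4G27450 had 106, 113 and 97.1 CPM in induced and 12.2, 13.5 and 8.36 CPM in mock roots (log2 fold change 3.07, SE 0.239, edgeR adjusted p = 1.76e-07). CBSX5 had 3.51, 4.66 and 2.37 CPM in induced and 0.364, 0.658 and 0.435 CPM in mock roots at 8 h. At 24 h CBSX5 had 4.53, 4.12 and 4.15 CPM in induced and 0.408, 0.579 and 0.484 CPM in mock roots (log2 fold change 2.97, SE 0.27, edgeR adjusted p = 7.28e-07). In both genes replicate 2 was the highest and replicate 3 the lowest of the induced 8 h libraries, and the induced libraries of the times overlapped. AT4G27450 shares 71 bases with AT4G27440 on the opposite strand, which averaged 291 CPM in induced and 251 CPM in mock roots at 24 h.

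AT2G46150 (chromosome 2, 18961283 to 18962423, plus strand), annotated as a late embryogenesis abundant hydroxyproline-rich glycoprotein, lies 319 bases before AT2G46160 on the same strand. AT2G46150 had 5.57, 6.63 and 6.44 CPM in induced and 0.85, 1.001 and 0.768 CPM in mock roots at 8 h. At 24 h AT2G46150 had 16.6, 20.02 and 18.2 CPM in induced and 0.791, 0.989 and 1.16 CPM in mock roots (log2 fold change 4.08, SE 0.138, edgeR adjusted p = 1.83e-10). The induced mean at 24 h was 2.94 times that at 8 h for AT2G46150 and 3.15 times for AT2G46160.

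AT2G02610 (chromosome 2, 710618 to 712819, plus strand) and AT2G02630 (chromosome 2, 723565 to 725620, plus strand) encode cysteine- and histidine-rich C1-domain proteins. AT2G02610 had 1.41, 2.61 and 2.29 CPM in induced and 0.291, 0.629 and 0.461 CPM in mock roots at 8 h. At 24 h AT2G02610 had 2.09, 2.35 and 2.55 CPM in induced and 0.383, 0.41 and 0.699 CPM in mock roots. AT2G02630 had 3.12, 3.89 and 3.47 CPM in induced and 0.704, 1.09 and 0.742 CPM in mock roots at 8 h. At 24 h AT2G02630 had 5.11, 5.84 and 6.08 CPM in induced and 0.536, 0.772 and 0.995 CPM in mock roots. The gene between them, AT2G02620, of the same family, missed the level threshold at 8 h and had means of 0.598 CPM in induced and 0.0266 CPM in mock roots at 8 h, and of 4.48 CPM in induced and 0.00896 CPM in mock roots at 24 h. AT2G02610 is 96.6% identical over 1975 bases to AT2G02640, which averaged 0.119 CPM in induced and 0.0349 CPM in mock roots at 24 h, so its counts are uncertain. Their log2 fold changes at 24 h were 2.09 (SE 0.31, edgeR adjusted p = 5.78e-05) for AT2G02610 and 2.74 (SE 0.208, edgeR adjusted p = 1.42e-07) for AT2G02630. AT1G61840, another C1-domain gene, on chromosome 1, stood at 2.97.

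Others of this mixed group gave log2 fold changes at 24 h of 4.94 for the cold acclimation protein AT4G37220, 4.41 for the AAA-type ATPase AT5G45720 and 3.77 for DUF9, an agenet-domain protein. TRM24 stood at 3.51 and the RNA-binding protein AT4G13690 at 3.09. AT4G37220 was 5.10 times higher in induced roots at 24 h than at 8 h, with 17.05, 17.7 and 16.4 CPM in induced and 0.179, 0.869 and 0.43 CPM in mock roots at 24 h. Without mock replicate 2 of 24 h its log2 fold change was 5.66.

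The product names of the last 6 genes in RefSeq gave no function, and all 6 rose at 24 h, with a median log2 fold change of 2.71. AT1G05577 (chromosome 1, 1662352 to 1664398, minus strand), whose promoter is printed above, had 2.401, 2.72 and 2.47 CPM in induced and 0.0486, 0.114 and 0.0256 CPM in mock roots at 8 h. At 24 h AT1G05577 had 4.93, 4.45 and 3.996 CPM in induced and 0.102, 0.0483 and 0.0269 CPM in mock roots. It was nearly silent in mock roots, with 7 counts over the 3 libraries at either time, and its log2 fold change at 24 h was 6.02 (SE 0.313, edgeR adjusted p = 4.39e-09), and 6.62 without mock replicate 1. AT3G57157 (chromosome 3, 21157011 to 21157247, plus strand), annotated as noncoding, had 9.11, 7.85 and 8.68 CPM in induced and 1.94, 1.66 and 2.76 CPM in mock roots at 8 h. At 24 h AT3G57157 had 13.1, 14.1 and 11.02 CPM in induced and 1.45, 1.88 and 2.02 CPM in mock roots (log2 fold change 2.69, SE 0.172, edgeR adjusted p = 2.76e-08). AT1G13530, AT4G15990 and AT5G60630 stood at 3.49, 2.03 and 2.06 on the same scale.

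AT1G07893 (chromosome 1, 19967683 to 19969121, plus strand) is a long noncoding RNA that lies wholly inside AT1G53500 on the opposite strand, next to HEI10. It had 2.25, 2.29 and 1.63 CPM in induced and 0.267, 0.229 and 0.435 CPM in mock roots at 8 h. At 24 h AT1G07893 had 2.79, 3.46 and 2.75 CPM in induced and 0.638, 0.265 and 0.323 CPM in mock roots (log2 fold change 2.73, SE 0.298, edgeR adjusted p = 3.91e-06). AT1G53500, an epimerase family gene, had means of 66.1 CPM in induced and 128.8 CPM in mock roots at 24 h. The strand setting of the counting is not given, so the level of AT1G07893 is uncertain.

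**Figure D4:**
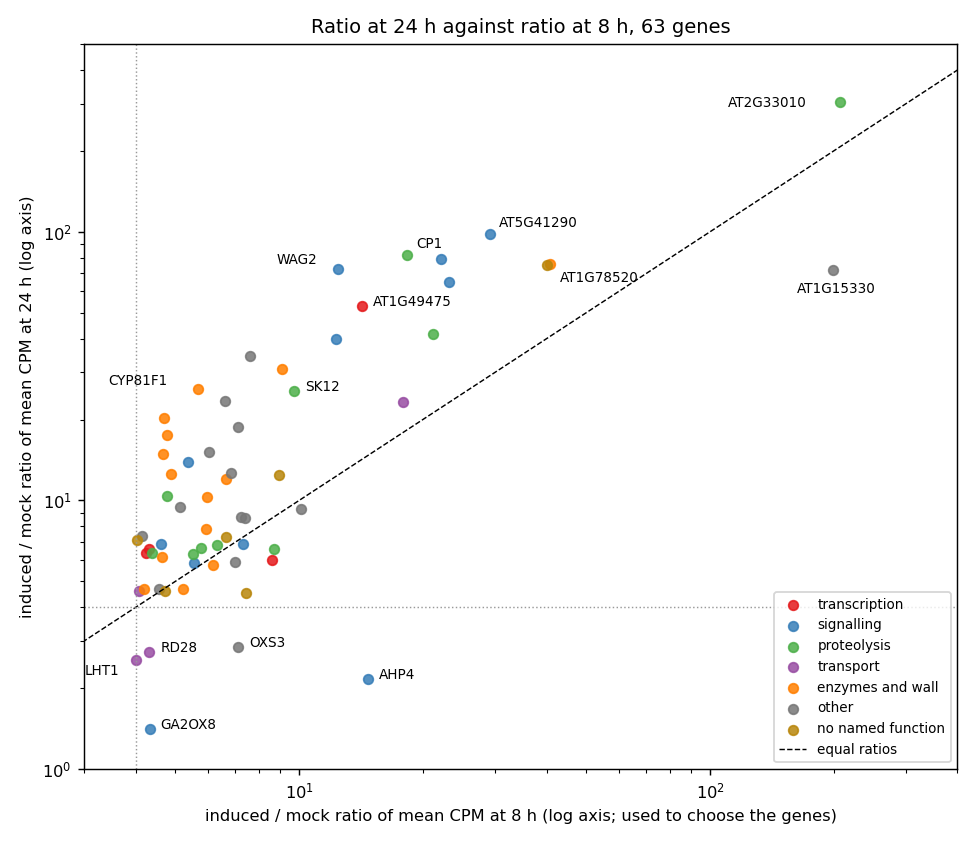
Ratio of mean CPM, induced over mock, at 24 h (vertical, log axis) against that at 8 h (horizontal, log axis) for the 63 genes, coloured by role, with dotted lines at 4 and a dashed line of equal ratios. The 48 genes above the dashed line had a larger ratio at 24 h, and GA2OX8, AHP4, LHT1, RD28 and OXS3 are the 5 genes under the dotted line at 24 h.

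The rule did not use position or biotype. Its threshold in CPM is not scaled by length, so longer transcripts reach it more easily. The 63 genes lay on all 5 chromosomes (15, 11, 7, 13 and 17 from chromosome 1 to 5), and 13 of them had another of the 63 within 2 loci. Their median exon length was 1486 bases, against 1368 bases for nuclear loci at any level, silent ones included. All but AT1G07893 and AT3G57157 are annotated as protein coding. At 24 h the ratio of means was 72.6 for WAG2 and 40.0 for RTFL10, and 78.9, 98.1 and 65.2 for AT5G41280, AT5G41290 and AT5G41300. It was 18.7 for AT2G46150 and 41.8 for AT2G46160, 9.28 for AT4G27450 and 8.70 for CBSX5, 4.69 for AT2G02610 and 7.40 for AT2G02630, and 6.64 for HEI10 and 7.34 for AT1G07893.

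**Figure D5:**
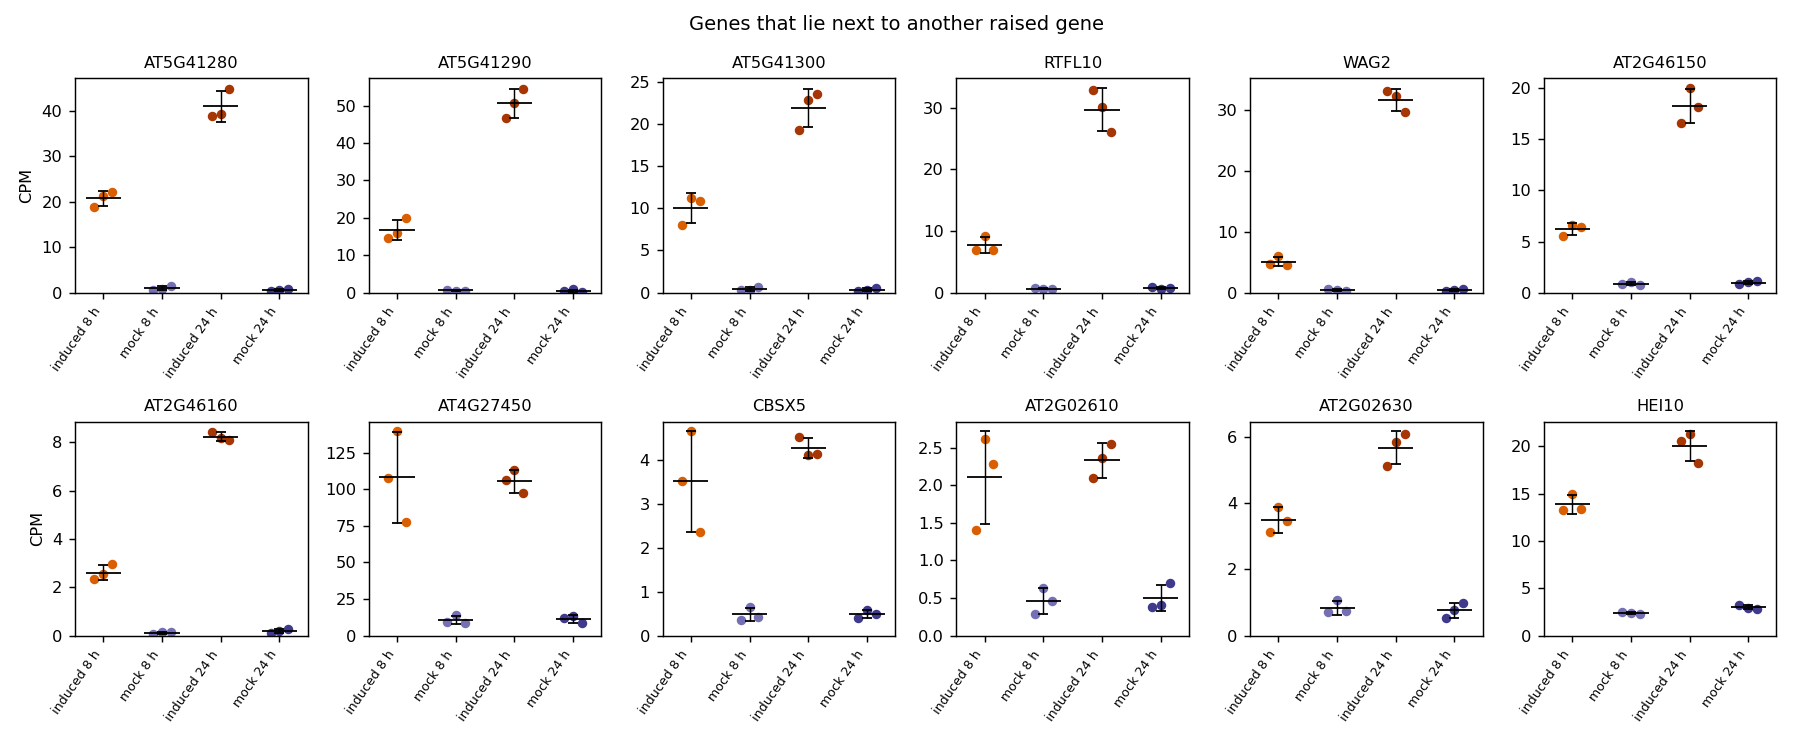
CPM of 12 of the 13 genes that lie within 2 loci of another of the 63, in the 3 libraries of each group (points, with the mean as a line and the SD as a bar), in the order induced 8 h, mock 8 h, induced 24 h and mock 24 h. The tandem genes AT5G41280, AT5G41290 and AT5G41300 and the pair RTFL10 and WAG2 are highest in the induced 24 h libraries, while AT4G27450 and CBSX5 stand at similar levels in both induced groups.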

How the data were processed

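RNA was measured in 12 root libraries, 3 in each of 4 groups. Per the labels' protocols, total RNA came from a GeneJET Plant RNA kit and the sequencing libraries from a stranded TruSeq Total RNA kit. The authors' deposited files give, per the file headers, raw whole-number counts per locus with its position, without normalization. The submitters' processing notes name TAIR10 as the build. The aligner, the counter and any use of strand were not given in the sources used here. No 2 libraries were identical.

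CPM used file totals, so all printed levels are unscaled. Loci were matched by locus tag to RefSeq TAIR10.1 (all 63 genes had the same start and end, as did 99.95% of 32548 matched loci), which gave names, products, exon lengths (union of exons) and promoters. Transcripts were compared with blastn 2.17.0, and a copy at 90% identity or more over at least 200 bases marked a gene as uncertain. Where a mock group held 1 to 3 counts, ratios carry 95% exact counting intervals. Counting error is all that these cover.

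Induced and mock roots at 24 h were compared by edgeR 4.0.16 (R 4.3.3, quasi-likelihood F test) on the deposited counts. The model had a mean per group over all 12 libraries and used TMM scaling. filterByExpr left 21439 genes, all 63 among them, some only through their induced libraries. P-values are two-sided, adjusted over all tested genes by Benjamini-Hochberg and called at 0.05. SE is the absolute log2 fold change over the square root of F. Alternatives were RLE size factors, library totals, DESeq2 1.42.0, no filter, the 6 libraries of 24 h, a replicate block, and each 24 h library left out. The code was tested on simulated data.

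The 63 genes and the lists were chosen with earlier results of these data known. Of the 63 genes, 62 are named, and values of the other one are not reported here. Values per library are given for the 8 highest ratios and the 8 highest levels at 8 h, the 5 highest and 5 lowest responses at 24 h, genes with no more than 2 loci between them, and the 3 genes either side of the threshold of 4. Values per library for AT1G49475, SK12, AT2G30380, AT4G37220 and AT5G35940 were added after these were seen.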

Additional observations from a re-analysis of the deposited data

How the results depend on the processing

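Across 12 alternatives the 63 log2 fold changes at 24 h gave 756 values, of which 754 kept the direction and the side of the threshold. The other 2 were those of AHP4 described above, both weaker, and none reversed. Leaving out 1 mock library moved 6 of the 63 fold changes by over 1.5 times, all upward (AT2G33010, AT1G05577, AT2G45180, AT4G37220, AT5G35940 and SDR5, with the values given above). The number of the 63 genes called higher was 61 or 62 and called lower 0 under every alternative. Genes called higher among all tested ran from 7641 to 7927 when 1 library of 24 h was left out and from 7327 to 10336 under the other alternatives, and genes called lower from 6963 to 7102 and from 6095 to 7704. Same-numbered libraries are not stated to share a batch, and their deviations at 24 h correlated at 0.253, 0.059 and 0.121, so the numbers were not taken as pairs. With the replicate block, 8416 genes were called higher and 7477 lower, and 62 of the 63 genes were higher. In all, 4 of the 6 libraries of 24 h correlated best with their own number. Both thresholds were met again at 24 h by 57 to 58 genes under other scalings and by 47 with 5 CPM in place of 2. The rule itself, without 1 library of 8 h, chose 57 to 69 genes, and 57 or 53 with TMM or RLE scaling. Depth limits the genes whose mock libraries held few counts, such as AT2G33010 and AT1G15330, to wide ratio intervals.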
